A study of Mus musculus with 36 samples.

Results

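Injured kidney tubules switch on a recognisable set of genes, and 10 of them were followed here by name in kidney cortex: Havcr1, Lcn2, Vcam1, Spp1, Clu, Sox9, Cd44, Gdf15, Krt8 and Krt18. All 10 were found among the 15,730 genes of the count table, and all 10 passed the filter on low counts, which kept 15,726 genes. RNA was sequenced from the kidney cortex of male ApoE−/− mice on a C57BL/6 background, so every group lacks apolipoprotein E, a carrier of plasma lipids. The 36 libraries form 6 groups of 6: diabetic mice given LXA4, diabetic mice given benzo-LXA4, diabetic mice given vehicle, and nondiabetic mice given LXA4, benzo-LXA4 or vehicle. The diabetic mice had received 55 mg/kg streptozotocin on 5 days, starting when they were 6 weeks old. Streptozotocin is a toxin of insulin-producing beta cells. Streptozotocin itself and the diabetes that followed cannot be told apart in this design. LXA4 is lipoxin A4, a lipid mediator that dampens inflammation, and benzo-LXA4 is a synthetic analog with a benzene ring in its structure. LXA4 was given at 5 ug/kg and benzo-LXA4 at 1.7 ug/kg, each by 2 intraperitoneal injections a week, and vehicle was 0.1% ethanol. The labels describe an intervention schedule with treatment in weeks 10 to 16 of a follow-up of 16 weeks. They do not say that each replicate is a separate mouse, so p-values measure the spread between these libraries, which may be in part technical.

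The markers differ in what they do. Havcr1 encodes KIM-1, a receptor by which injured proximal tubule cells take up dying cells, and Lcn2 encodes NGAL, a protein that binds iron-carrying siderophores and is shed into urine after injury. Spp1 encodes osteopontin, a secreted ligand of integrins and CD44, Clu encodes the secreted chaperone clusterin, and Gdf15 encodes a stress-induced hormone of the TGF-beta superfamily. Vcam1 and Cd44 encode surface adhesion molecules, the first a ligand of the leukocyte integrin alpha4 beta1 and the second a receptor for hyaluronan and osteopontin. Sox9 encodes a transcription factor of tubule cells that repair the epithelium. Krt8 and Krt18 encode the partner keratins of simple epithelia, which form filaments together. After injury, proximal tubule cells that fail to recover are known to keep Vcam1 expression.

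Total counts per library ran from 8,896,193 to 43,305,005. Levels are given as CPM, the share of a gene in the scaled library total. Apoe read 1.62 to 3.42 CPM in the 36 libraries. Structural RNA genes took 42.8% of the counts of diabetic LXA4 replicate 6 and 11.5% of those of nondiabetic vehicle replicate 3, against at most 3.41% in the other 34 libraries. Diabetic LXA4 replicate 6 was the lowest of its group for 7 of the 10 markers, and values without both libraries are given where they change a result. The libraries come from whole cortex, so fewer cells of a type and less RNA per cell cannot be told apart.

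Per kilobase of exon, the order of the first 5 markers was the same in all 6 groups: Spp1, Clu, Krt8, Krt18 and Gdf15. In diabetic vehicle mice the mean CPM per kilobase was 293 ± 142 for Spp1, 45.8 ± 10.0 for Clu, 17.9 ± 0.82 for Krt8, 6.64 ± 2.31 for Krt18 and 4.70 ± 0.96 for Gdf15 (SD, n = 6). Vcam1 and Cd44 followed at 1.76 ± 0.44 and 1.62 ± 0.49 CPM per kilobase, a gap smaller than their spread, and they changed places in the nondiabetic groups. Havcr1 and Lcn2 came next at 1.14 ± 0.62 and 0.99 ± 0.88 CPM per kilobase, also within their spread, and Sox9 was lowest at 0.20 ± 0.05 CPM per kilobase. The classical urinary injury markers Havcr1 and Lcn2 were thus among the least abundant of the 10 transcripts, at 0 to 6.74 CPM in any library.

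**Figure D1:**
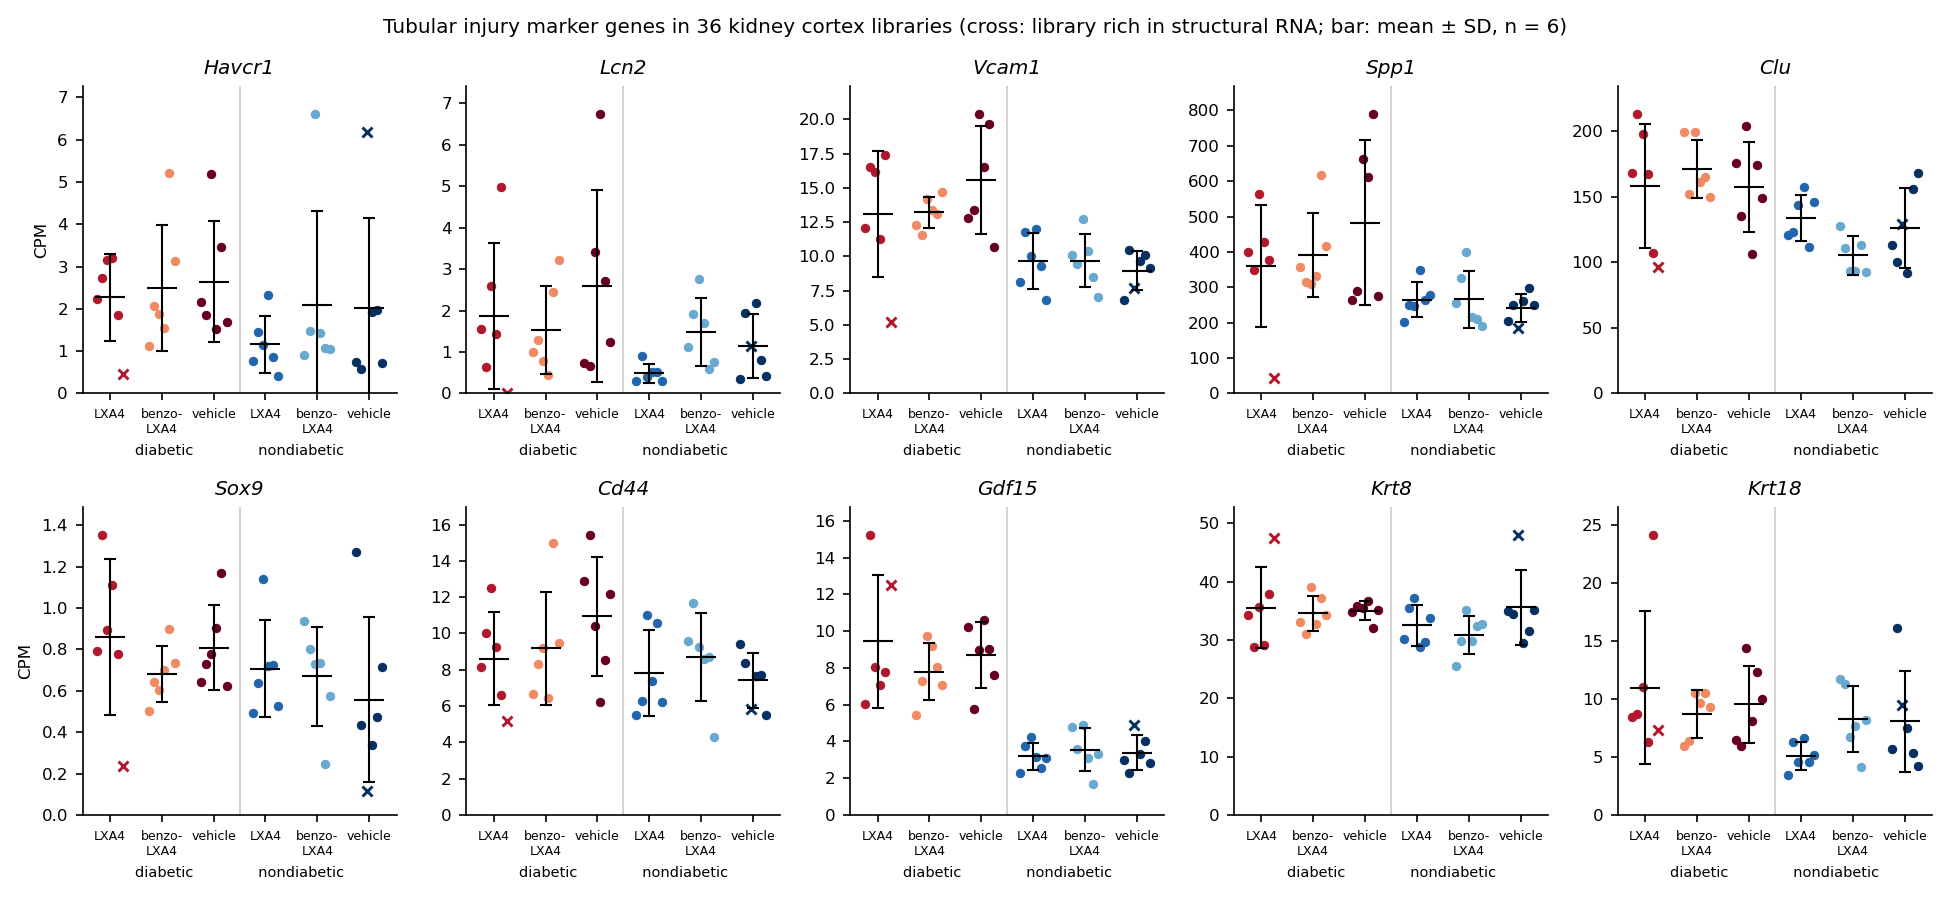
Each panel shows 1 gene in CPM (y axis, from 0) in the 6 groups of 6 libraries (x axis, diabetic groups left of nondiabetic groups). Points are libraries, crosses are the 2 libraries rich in structural RNA, and black bars are the mean ± SD, cut at 0. For Gdf15, every diabetic library lies above every nondiabetic one, with 5.41 CPM as the lowest diabetic value and 4.92 CPM as the highest nondiabetic value.

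The question of the comparison within vehicle mice was which injury markers differ in diabetic cortex without a lipoxin. Gdf15 and Vcam1 rose, Krt8 was nearly equal in both groups, and the other 7 did not pass the test. Thus 2 of the 10 markers were called higher and 0 lower, where 5.6% of all genes tested were called in either direction. Under LXA4, 3 markers were called higher (Gdf15, Lcn2 and Krt18) beside 27.7% of all genes. Under benzo-LXA4, 2 were called higher (Gdf15 and Clu) beside 4.06% of all genes. In the mean over the 3 treatments, 6 were called higher (Gdf15, Vcam1, Clu, Spp1, Lcn2 and Krt18) beside 35.4% of all genes. The median log2 difference of the 10 markers was 0.55 under vehicle, 0.46 under LXA4, 0.20 under benzo-LXA4 and 0.53 in the mean over treatments. The median of all genes tested was -0.01, 0.05, -0.01 and 0.01 in the same comparisons. A call means an adjusted p under 0.05 in the quasi-likelihood test of edgeR, and no marker was called lower in these 4 comparisons.

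**Figure D2:**
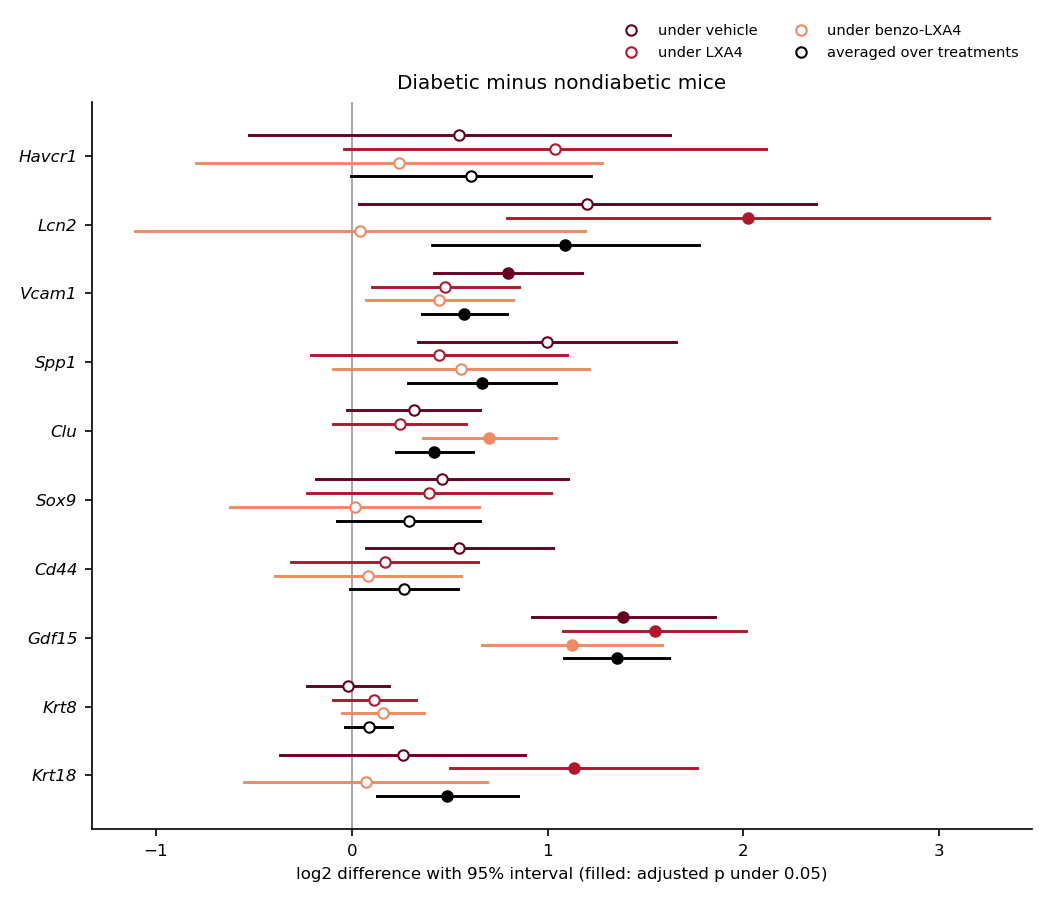
The x axis gives the log2 difference of diabetic minus nondiabetic mice with its 95% interval, and each row of 4 lines is 1 gene, under vehicle, LXA4 and benzo-LXA4 and in the mean over treatments. Filled points passed an adjusted p of 0.05. Gdf15 is filled in all 4 comparisons, at 1.39, 1.55, 1.12 and 1.35, and Krt8 in none.

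Gdf15 gave the clearest separation of diabetic and nondiabetic cortex. In diabetic mice it lay between 6.03 and 15.2 CPM with LXA4 (median 7.92), 5.41 and 9.72 CPM with benzo-LXA4 (median 7.66) and 5.76 and 10.6 CPM with vehicle (median 9.0). In nondiabetic mice it lay between 2.30 and 4.25 CPM with LXA4 (median 3.13), 1.70 and 4.89 CPM with benzo-LXA4 (median 3.46) and 2.28 and 4.92 CPM with vehicle (median 3.15). All 18 diabetic libraries were above all 18 nondiabetic libraries. The fold was 2.61 under vehicle (95% interval 1.89 to 3.61, adjusted p = 0.000229), 2.92 under LXA4 (2.11 to 4.03, adjusted p = 2.4e-05) and 2.18 under benzo-LXA4 (1.58 to 3.00, adjusted p = 0.00275). Gdf15 kept its call in all 21 alternative fits of each of these comparisons. Cdkn1a, the cell cycle inhibitor p21 and a p53 target, also separated the states, at 25.4 to 50.6 CPM in diabetic and 2.55 to 9.49 CPM in nondiabetic libraries. Over the 36 libraries, Cdkn1a was the gene with the profile most like that of Gdf15, with a Spearman rho of 0.88, and the rho was 0.53 once group means were removed.

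Gdf15 (chr8:70629393-70632456, minus strand, GRCm38) and Spp1 (chr5:104435118-104441050, plus strand) stand for the 2 kinds of pattern among the called markers, Gdf15 with no overlap between the states and Spp1 with the highest level and a wide spread between libraries. The 250 bases before their starts are shown for that reason, from the RefSeq table of GRCm38.p6, 5′ to 3′ on the strand of the gene, with motif matches in capitals.
Gdf15, chr8:70632457-70632706, minus strand: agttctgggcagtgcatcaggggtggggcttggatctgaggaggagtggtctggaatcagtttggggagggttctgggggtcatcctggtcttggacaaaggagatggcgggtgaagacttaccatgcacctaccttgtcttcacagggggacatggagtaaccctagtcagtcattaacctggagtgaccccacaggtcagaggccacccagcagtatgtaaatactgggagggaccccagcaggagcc
Spp1, chr5:104434861-104435110, plus strand: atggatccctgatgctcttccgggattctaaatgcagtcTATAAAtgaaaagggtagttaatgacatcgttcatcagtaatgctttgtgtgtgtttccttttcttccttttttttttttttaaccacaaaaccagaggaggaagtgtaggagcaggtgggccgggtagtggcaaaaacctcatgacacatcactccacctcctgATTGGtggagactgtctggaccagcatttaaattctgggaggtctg
The motifs searched on both strands were a TATA box with the letters TATAAA, the CCAAT box, a GC box with the letters GGGCGG and a CRE half-site with the letters TGACG. An AP-1 site with the letters TGANTCA, a p53 half-site and an NF-kB site were searched as well. Matches do not overlap each other in these windows. The Spp1 window held TATAAA at positions -211 to -206 and a reverse CCAAT at -46 to -42, counted back from the first base of the transcript. The Gdf15 window shown held none of these motifs, and a second RefSeq window of Gdf15 held a reverse CCAAT box at -6 to -2. Of the 32,851 RefSeq windows of the same length, 12.4% held the TATA box, 33.9% the CCAAT box, 32.7% the GC box, 17.8% the CRE half-site, 6.75% the AP-1 motif, 7.13% the p53 half-site and 3.9% the NF-kB motif. RefSeq windows were found for 7 of the 10 markers.

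Vcam1 (chr3:116109949-116129688, minus strand) rose in diabetic vehicle mice with no overlap between the groups. It lay between 10.7 and 20.4 CPM in diabetic vehicle libraries (median 15.0) and between 6.80 and 10.5 CPM in nondiabetic vehicle libraries (median 9.39). The fold was 1.74 (1.34 to 2.26, adjusted p = 0.00882), and the call held in all 21 alternative fits. Under LXA4 the range was 5.19 to 17.4 CPM in diabetic and 6.81 to 12.0 CPM in nondiabetic mice, and the fold of 1.39 missed the threshold (adjusted p = 0.0511). With both libraries rich in structural RNA left out it passed, at a log2 difference of 0.60 (adjusted p = 0.00491). Over its 21 alternatives under LXA4 the adjusted p ran from 0.00491 to 0.265, with 9 calls. Under benzo-LXA4 the range was 11.6 to 14.7 CPM in diabetic and 7.04 to 12.7 CPM in nondiabetic mice, with a fold of 1.36 that was not called (adjusted p = 0.19). Averaged over treatments, Vcam1 was 1.49-fold higher (1.28 to 1.73, adjusted p = 0.00011). The gene with the most similar profile was Lbp, the lipopolysaccharide-binding protein, with a rho of 0.909 over 36 libraries and 0.755 within groups. An antisense gene, Gm43109, overlaps Vcam1 on the opposite strand, and the strand setting of the counting is not given in the sources used here.

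Spp1 was the most abundant marker and split the diabetic vehicle libraries. Replicates 3, 4 and 5 read 663, 611 and 790 CPM, and replicates 1, 2 and 6 read 265, 289 and 275 CPM. Nondiabetic vehicle libraries ran from 186 to 298 CPM, so the lower 3 diabetic libraries lie inside the nondiabetic range and the upper 3 lie far above it. The 1.99-fold difference (1.26 to 3.15) just missed the threshold over all genes (adjusted p = 0.0632), and all 6 diabetic libraries exceeded the nondiabetic mean. Over its 21 alternatives the adjusted p ran from 0.0163 to 0.2, with 7 calls. One of these calls came without the 2 libraries rich in structural RNA, at a log2 difference of 0.93 (adjusted p = 0.0163). Under LXA4 the diabetic range was 44.9 to 564 CPM against 203 to 349 CPM in nondiabetic mice, and 44.9 CPM came from diabetic LXA4 replicate 6. The fold there was 1.36 (adjusted p = 0.303), and without the 2 libraries rich in structural RNA the log2 difference was 0.67 and passed (adjusted p = 0.0294). Over the 21 alternatives under LXA4 the adjusted p ran from 0.0171 to 0.595, with 3 calls. Under benzo-LXA4 the range was 309 to 618 CPM in diabetic and 190 to 399 CPM in nondiabetic mice (fold 1.47, adjusted p = 0.391). Over the 3 treatments together Spp1 was 1.59-fold higher (1.22 to 2.06, adjusted p = 0.00569). A gene of unsettled type, Gm42793, lies within Spp1 on the same strand, so reads of either could be counted as Spp1.

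Lcn2 (chr2:32384633-32388252, minus strand) was low and varied widely within groups. It lay between 0.671 and 6.74 CPM in diabetic vehicle mice (median 1.98) and between 0.348 and 2.17 CPM in nondiabetic vehicle mice (median 0.98). The fold of 2.30 had an interval of 1.02 to 5.16 and was not called (adjusted p = 0.222). Under LXA4 it lay between 0 and 4.99 CPM in diabetic mice (median 1.49) and between 0.295 and 0.912 CPM in nondiabetic mice (median 0.459). The 0 came from diabetic LXA4 replicate 6, where a count of 0 allows up to 0.708 CPM, a limit that covers counting error only. Lcn2 was called there at 4.07-fold (1.73 to 9.55, adjusted p = 0.0133), and the log2 difference of 1.46 without diabetic LXA4 replicate 5 was not called (adjusted p = 0.0749). Under benzo-LXA4 the means were 1.53 ± 1.07 CPM in diabetic and 1.48 ± 0.82 CPM in nondiabetic mice (SD, n = 6), and the fold of 1.03 was not called (0.46 to 2.29, adjusted p = 0.984). Lcn2 was 2.13-fold higher in the mean over treatments (1.33 to 3.41, adjusted p = 0.0116).

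Havcr1 (chr11:46735080-46779578, plus strand) did not pass in any of the 4 diabetes comparisons in the edgeR fit of the 6 group means over 36 libraries. It lay between 1.52 and 5.20 CPM in diabetic vehicle mice (median 2.00) and between 0.581 and 6.18 CPM in nondiabetic vehicle mice (median 1.33). The 6.18 CPM came from nondiabetic vehicle replicate 3, one of the libraries rich in structural RNA, and the other 5 nondiabetic vehicle libraries did not exceed 1.98 CPM. The fold under vehicle was 1.46 (0.695 to 3.08, adjusted p = 0.591), a log2 difference of 0.55. Without the 2 libraries rich in structural RNA this log2 difference was 1.14 (0.13 to 2.15) and not called (adjusted p = 0.143). Under LXA4 the range was 0.472 to 3.20 CPM in diabetic and 0.425 to 2.34 CPM in nondiabetic mice. The fold there was 2.05 (0.972 to 4.32, adjusted p = 0.139), and limma voom called it, at a log2 difference of 1.27 (adjusted p = 0.00998). That was the only call among its 21 alternative fits under LXA4. Under benzo-LXA4 it was 1.13 to 5.21 CPM in diabetic and 0.902 to 6.61 CPM in nondiabetic mice, and the 6.61 CPM of nondiabetic benzo-LXA4 replicate 3 stood far above the other 5 of its group. Over all treatments 17 of 18 diabetic libraries exceeded the nondiabetic median of 1.11 CPM, and the fold was 1.53 (0.997 to 2.33, adjusted p = 0.115). Without the 2 libraries rich in structural RNA the log2 difference was 0.84 and passed (adjusted p = 0.0131), and without nondiabetic benzo-LXA4 replicate 3 alone it was 0.89 (adjusted p = 0.0118). Without nondiabetic vehicle replicate 3 alone it was 0.80 (adjusted p = 0.025), and limma voom also called it, at 1.03 (adjusted p = 0.000714). With the replicate number added to the edgeR fit as a block, it was 0.75 and called (adjusted p = 0.0205). These 5 were the only calls among the 44 alternative fits of the mean over treatments, where the adjusted p reached 0.214.

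Clu (chr14:65968483-65981547, plus strand) was called in benzo-LXA4 mice. It lay between 150 and 199 CPM in diabetic benzo-LXA4 libraries (median 163) and between 92.4 and 128 CPM in nondiabetic benzo-LXA4 libraries (median 102), with no overlap. The fold was 1.63 (1.28 to 2.06, adjusted p = 0.012), and the call held in all 21 alternative fits. Under vehicle the range was 106 to 204 CPM in diabetic and 92.0 to 168 CPM in nondiabetic mice, with a fold of 1.25 that was not called (adjusted p = 0.275). Under LXA4 it was 96.3 to 213 CPM in diabetic and 112 to 157 CPM in nondiabetic mice (fold 1.19, adjusted p = 0.274). These groups overlap. The difference between the benzo-LXA4 and vehicle values was tested as an interaction, which was 0.39 on the log2 scale (-0.09 to 0.87) and not called (adjusted p = 1). Clu was 1.34-fold higher in the mean over treatments (1.17 to 1.53, adjusted p = 0.00104). Its closest profile was that of Trpv5, the calcium channel of the distal tubule, with a rho of 0.83 over the 36 libraries and 0.749 within groups.

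The keratins did not move together. Krt8 (chr15:101996698-102004482, minus strand) lay between 32.0 and 36.7 CPM in diabetic vehicle mice and between 29.4 and 47.9 CPM in nondiabetic vehicle mice, and its log2 difference was -0.02 (-0.23 to 0.19). Averaged over treatments, it was 0.09 (-0.04 to 0.21, adjusted p = 0.273), the narrowest interval of the 10. The 2 highest Krt8 values of the study, 47.5 CPM in diabetic LXA4 replicate 6 and 47.9 CPM in nondiabetic vehicle replicate 3, came from the 2 libraries rich in structural RNA. The Krt8 gene overlaps the lincRNA Gm36026 on the opposite strand.

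Krt18 (chr15:102028180-102032027, plus strand) was called under LXA4. It lay between 6.28 and 24.1 CPM in diabetic LXA4 mice (median 8.60) and between 3.47 and 6.64 CPM in nondiabetic LXA4 mice (median 4.84). Every diabetic library exceeded the nondiabetic mean, and 1 of them, at 6.28 CPM, lay inside the nondiabetic range. The fold was 2.19 (1.42 to 3.40, adjusted p = 0.00768), and without diabetic LXA4 replicate 5, the library at 24.1 CPM, the log2 difference was 0.72 and not called (adjusted p = 0.061). Under vehicle Krt18 lay between 5.98 and 14.4 CPM in diabetic and between 4.26 and 16.1 CPM in nondiabetic mice, with a fold of 1.20 (adjusted p = 0.674). Under benzo-LXA4 the range was 5.94 to 10.5 CPM in diabetic and 4.10 to 11.7 CPM in nondiabetic mice (fold 1.05, adjusted p = 0.942). The log2 difference in the mean over treatments was 0.49 (adjusted p = 0.0306). It was 0.35 without diabetic LXA4 replicate 5 (adjusted p = 0.0859), 0.44 without diabetic vehicle replicate 3 (adjusted p = 0.0536) and 0.44 without nondiabetic vehicle replicate 6 (adjusted p = 0.051).

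Urothelial RNA moved with Krt18. Urothelium lines the renal pelvis and expresses both keratins, and 9 of 10 listed urothelial markers (uroplakins, Krt5 and others, without Krt20) were measured. Their summed level ran from 3.40 to 66.8 CPM over the libraries. In diabetic mice it ran from 6.60 to 66.8 CPM with LXA4 (median 20.4), 5.07 to 30.0 CPM with benzo-LXA4 (median 12.4) and 4.66 to 26.9 CPM with vehicle (median 8.73). In nondiabetic mice it ran from 3.40 to 14.7 CPM with LXA4 (median 4.09), 5.63 to 53.3 CPM with benzo-LXA4 (median 14.5) and 4.04 to 57.5 CPM with vehicle (median 14.3). The 2 libraries highest in Krt18, diabetic LXA4 replicate 5 at 24.1 CPM and nondiabetic vehicle replicate 2 at 16.1 CPM, were also the 2 highest in urothelial markers, at 66.8 and 57.5 CPM.

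Within groups, Krt18 correlated with the urothelial sum over 36 libraries (Pearson r = 0.761, adjusted p = 0.0003, Spearman rho = 0.724, adjusted p = 0.0009, permutation within groups). Without the 2 libraries farthest from the median of the sum, r was 0.674 and rho 0.698. Krt8 did not follow it (r = -0.124, adjusted p = 0.704, permutation). Of 30 relations between the 10 markers and the sums of urothelial, proximal tubule and macrophage markers, Krt18 with the urothelial sum was the only one to pass by Pearson r over the 36 libraries, and 4 others passed by rho. Lcn2 had a rho of 0.474 with the urothelial sum (adjusted p = 0.0428, permutation), which was 0.374 without the 2 farthest libraries (adjusted p = 0.0999, permutation). Without the 2 libraries rich in structural RNA this relation passed by both measures. There r was 0.486 (adjusted p = 0.048, permutation) and rho 0.5 (adjusted p = 0.0386, permutation). With the log2 urothelial sum added to the fit, the Krt18 difference under LXA4 was 0.36 (adjusted p = 0.291) and the Lcn2 difference 1.15 (adjusted p = 0.186), so neither was called, and Gdf15 stayed called at 1.53 (adjusted p = 0.000281). The Krt18 difference in the mean over treatments was 0.36 and called (adjusted p = 0.0186), and that of Lcn2 was 0.88 and called (adjusted p = 0.0264). Under LXA4 the sum itself differed between the states, with medians of 20.4 CPM in diabetic and 4.09 CPM in nondiabetic mice. Psca (3.30), Upk3b (2.63), Upk1a (1.70) and Upk2 (3.09) were called higher there. Adding the sum to the fit can thus remove part of the diabetes difference, and the part of urothelium in the lost calls was not tested.

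Lcn2 ran against the proximal tubule sum once the extreme libraries were left out. Over all 36 libraries rho was -0.607 (adjusted p = 0.0114, permutation) and r was -0.199 (adjusted p = 0.557, permutation). Without the 2 libraries farthest from the median of the sum, r was -0.877 (adjusted p = 0.0015, permutation), and with both rich libraries left out r was -0.83 (adjusted p = 0.0003, permutation). Without the 2 rich libraries, Spp1 also ran against that sum (r = -0.643, adjusted p = 0.0121, permutation), with r = -0.014 over all 36. Clu ran with it, at a rho of 0.528 (adjusted p = 0.0395, permutation), and r was 0.6 without the 2 farthest libraries (adjusted p = 0.0146, permutation).

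With the sum of macrophage and dendritic cell markers, Gdf15 had a rho of 0.515 (adjusted p = 0.0215, permutation), which was 0.412 without the 2 farthest libraries (adjusted p = 0.0814, permutation). Without the 2 rich libraries, Havcr1 had r = 0.496 with that sum (adjusted p = 0.025, permutation) and Vcam1 r = 0.486 (adjusted p = 0.0121, permutation). Over all 36 libraries these were 0.115 and -0.223, and neither passed.

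**Figure D3:**
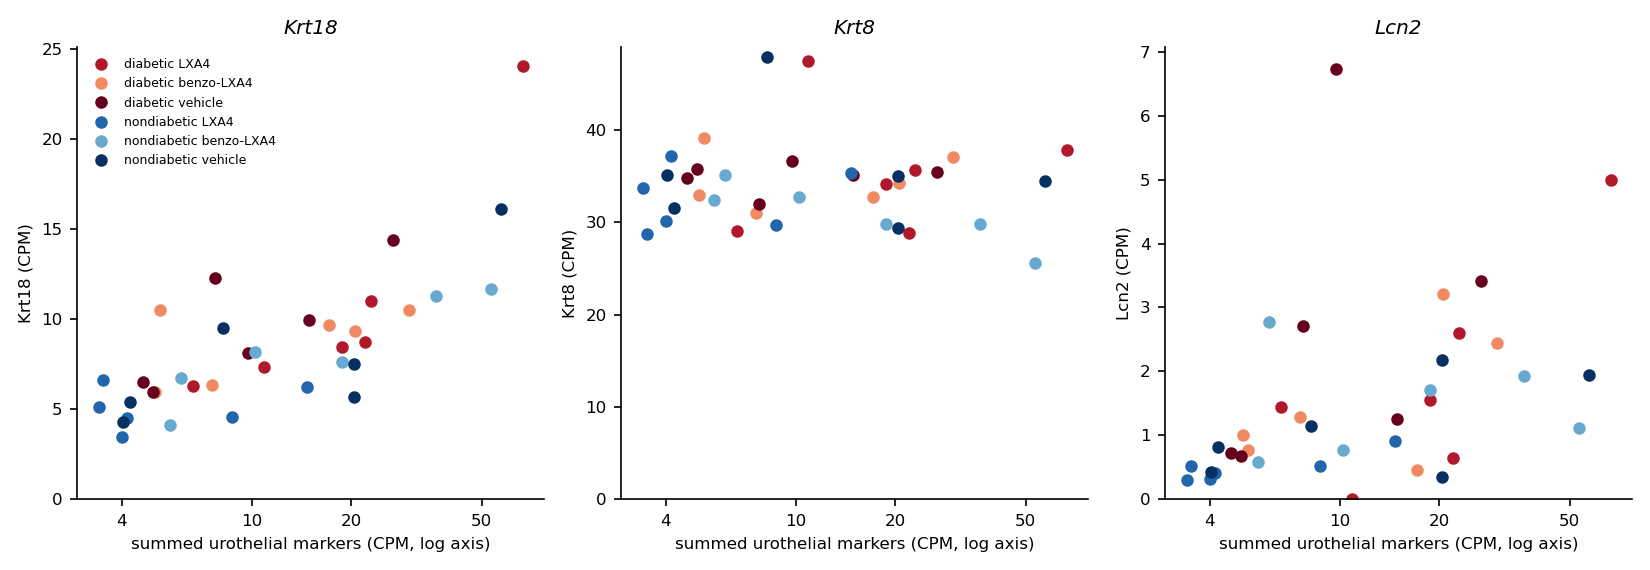
Each point is 1 of the 36 libraries, coloured by group, with the summed level of 9 urothelial markers in CPM on a log x axis and Krt18, Krt8 or Lcn2 in CPM on a linear y axis from 0. Krt18 climbs with the urothelial sum to 24.1 CPM at a sum of 66.8 CPM, and Krt8 shows no such climb.

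Sox9 and Cd44 passed in none of the diabetes comparisons by edgeR over the 36 libraries. Sox9 (chr11:112782224-112787760, plus strand) had 1 to 36 counts in each library. It lay between 0.623 and 1.17 CPM in diabetic vehicle mice and between 0.114 and 1.27 CPM in nondiabetic vehicle mice (fold 1.38, 0.88 to 2.15, adjusted p = 0.422). Cd44 (chr2:102811141-102901665, minus strand) lay between 6.23 and 15.4 CPM in diabetic vehicle mice and between 5.51 and 9.42 CPM in nondiabetic vehicle mice (fold 1.46, 1.05 to 2.04, adjusted p = 0.166). For both genes the groups overlap. Averaged over treatments, the log2 difference was 0.29 for Sox9 (-0.08 to 0.66, adjusted p = 0.214) and 0.27 for Cd44 (-0.01 to 0.54, adjusted p = 0.124). Averaged over treatments, Sox9 was called without nondiabetic vehicle replicate 1, at 0.42 (adjusted p = 0.0465), and Cd44 by limma voom, at 0.33 (adjusted p = 0.0385). Each was the only call among the alternative fits of that mean, 43 for Sox9 and 44 for Cd44.

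The next question was whether either lipoxin moved the injury markers. In diabetic mice given LXA4, 0 of the 10 markers were called, beside 0.356% of all genes tested. The differences from diabetic vehicle mice ran from -0.41 for Spp1 to 0.23 for Krt18 on the log2 scale, with a median of -0.07. Without diabetic LXA4 replicate 5 the Krt18 difference was -0.18. In diabetic mice given benzo-LXA4, 0 of 10 were called, beside 0% of all genes, and the differences ran from -0.78 for Lcn2 to 0.12 for Clu, with a median of -0.20. By edgeR, 0 of the 10 markers had an unadjusted p under 0.05 in either comparison, and DESeq2 and limma voom also called 0 of 10 in each. With LXA4 the lowest edgeR p of a marker was 0.192 for Cd44, which ranked 5898 among the 15,726 genes tested. With benzo-LXA4 it was 0.167 for Lcn2, at rank 2553. Over all genes, 891 had an unadjusted p under 0.05 under benzo-LXA4, where DESeq2 called 52 genes and limma voom 105. The doses of the compounds differ, so their values stand side by side and were not compared with each other.

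Intervals show what these data can hold. For Gdf15, LXA4 gave a fold of 1.06 against vehicle in diabetic mice (0.78 to 1.45), and benzo-LXA4 gave 0.89 (0.66 to 1.21). For Vcam1 the folds were 0.86 with LXA4 (0.67 to 1.12) and 0.85 with benzo-LXA4 (0.65 to 1.09), and all 6 benzo-LXA4 libraries lay below the vehicle mean, with overlap between the groups. For Spp1 they were 0.75 with LXA4 (0.48 to 1.18) and 0.81 with benzo-LXA4 (0.52 to 1.28). All of these intervals include no change. For Lcn2 they were widest, at 0.79 (0.36 to 1.70) with LXA4 and 0.58 (0.27 to 1.27) with benzo-LXA4. In the treated diabetic mice the 3 high Spp1 values of the vehicle group had a counterpart in 618 CPM of diabetic benzo-LXA4 replicate 5 and 564 CPM of diabetic LXA4 replicate 3. The LXA4 values of Spp1 and Vcam1 depended on the libraries used. Without the 2 libraries rich in structural RNA, the log2 difference was -0.19 for Spp1, against -0.41, and -0.09 for Vcam1, against -0.21. By limma voom the Spp1 value with LXA4 was 0.02.

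In nondiabetic mice, LXA4 gave 0 calls among the 10 markers, beside 0% of all genes tested by edgeR, of which 967 had an unadjusted p under 0.05. Krt18 was the 1 marker with an unadjusted p under 0.05, at a fold of 0.64 (0.41 to 0.99, adjusted p = 0.812), and all 6 LXA4 libraries lay below the vehicle mean of 8.07 CPM. Lcn2 had a fold of 0.44 (0.18 to 1.07, adjusted p = 0.842), with all 6 LXA4 libraries below the vehicle mean of 1.14 CPM. The urothelial sum was also low in nondiabetic LXA4 mice, and with it in the fit the log2 difference was -0.12 for Krt18 and -0.63 for Lcn2, against -0.65 and -1.17 without it. Benzo-LXA4 gave 0 calls among the markers and 0% of all genes by edgeR, with 452 genes and 0 markers at an unadjusted p under 0.05. DESeq2 called 3 genes under LXA4 and 2 under benzo-LXA4, limma voom 3 and 0, and neither tool called a marker.

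Whether a compound acted differently in diabetic and nondiabetic mice was tested as an interaction. For LXA4, 0 of 10 markers were called by edgeR, beside 0.248% of all genes, and for benzo-LXA4 0 of 10, beside 0% of all genes. None of the 10 had an unadjusted p under 0.05 in either interaction, against 2592 and 673 of all genes, and DESeq2 and limma voom called 0 markers. The largest values were 0.87 for Krt18 with LXA4 (-0.01 to 1.76, adjusted p = 0.309) and -1.16 for Lcn2 with benzo-LXA4 (-2.80 to 0.48, adjusted p = 1). With the urothelial sum in the fit, the Krt18 value was -0.09. The diabetes differences under vehicle, LXA4 and benzo-LXA4 are therefore not shown to differ for any marker.

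**Figure D4:**
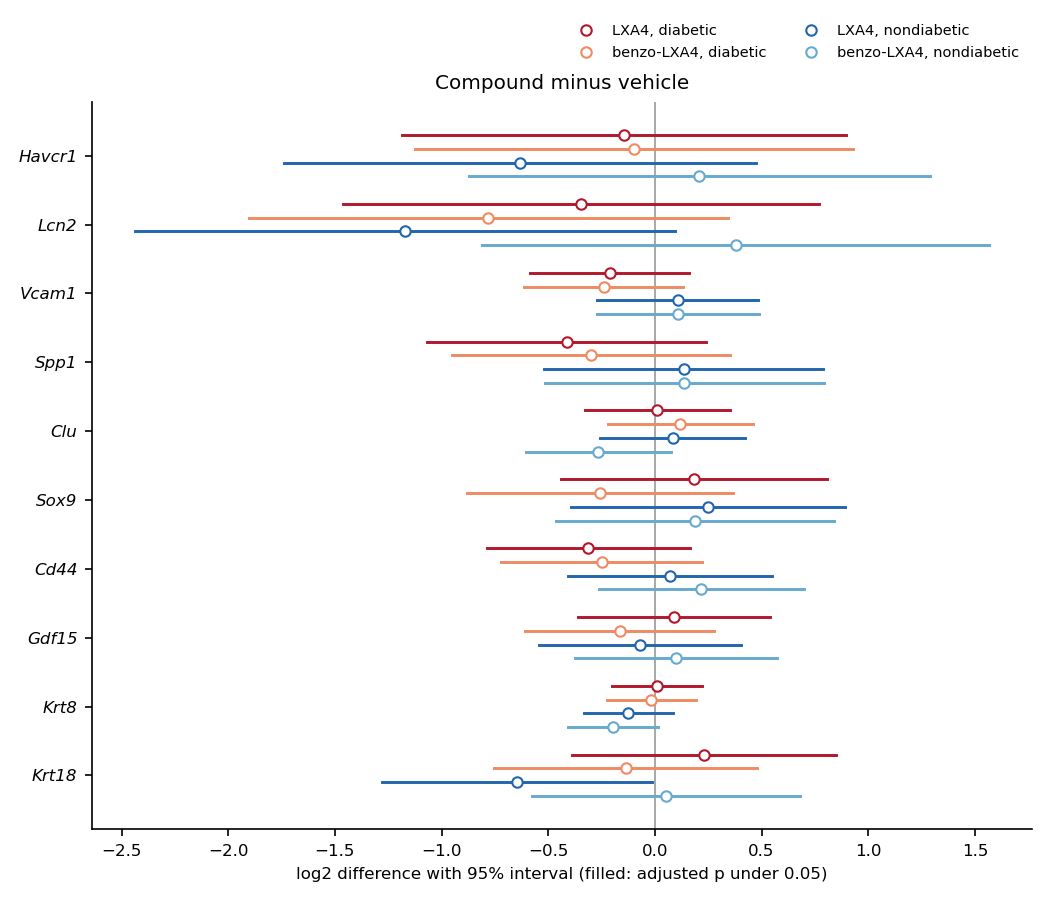
The x axis gives the log2 difference of compound minus vehicle with its 95% interval for LXA4 and benzo-LXA4 in diabetic and in nondiabetic mice, and each row of 4 lines is 1 gene. All points are open, since no adjusted p was under 0.05. The intervals of Krt8 are the narrowest and those of Lcn2 the widest.

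Libraries of the same group that were high in one marker tended to be high in certain others. With group means removed, 7 of the 45 pairs of markers passed by both Pearson r and Spearman rho, adjusted over the 45 pairs (permutation within groups, two-sided), and all 7 were positive. Havcr1, Lcn2, Vcam1 and Spp1 made up 6 of the 7: r was 0.843 for Lcn2 with Spp1, 0.809 for Vcam1 with Spp1, 0.776 for Lcn2 with Vcam1, 0.563 for Havcr1 with Spp1, 0.56 for Havcr1 with Vcam1 and 0.55 for Havcr1 with Lcn2. These 6 also passed without the 2 libraries farthest from the median of the first gene. Spp1 with Sox9 (r = 0.558) did not, at r = 0.347 (adjusted p = 0.0681, permutation). Without the 2 libraries rich in structural RNA, Lcn2 with Spp1 (r = 0.645) and Lcn2 with Vcam1 (r = 0.581) still passed, and Havcr1 with Lcn2 did not (r = 0.42, adjusted p = 0.0834, permutation). Gdf15, the marker with the clearest difference between the states, passed with none of the other 9 over the 36 libraries, at r between -0.10 and 0.30. Without the 2 rich libraries 8 pairs passed by r, among them Sox9 with Gdf15 (r = 0.539, adjusted p = 0.0276, permutation), which did not pass by rho (adjusted p = 0.0622, permutation). Lcn2 with Krt18 (r = 0.556) and Vcam1 with Krt18 (r = 0.488) also passed there, by both measures. Krt8 and Krt18, whose proteins pair, had r = 0.076.

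**Figure D5:**
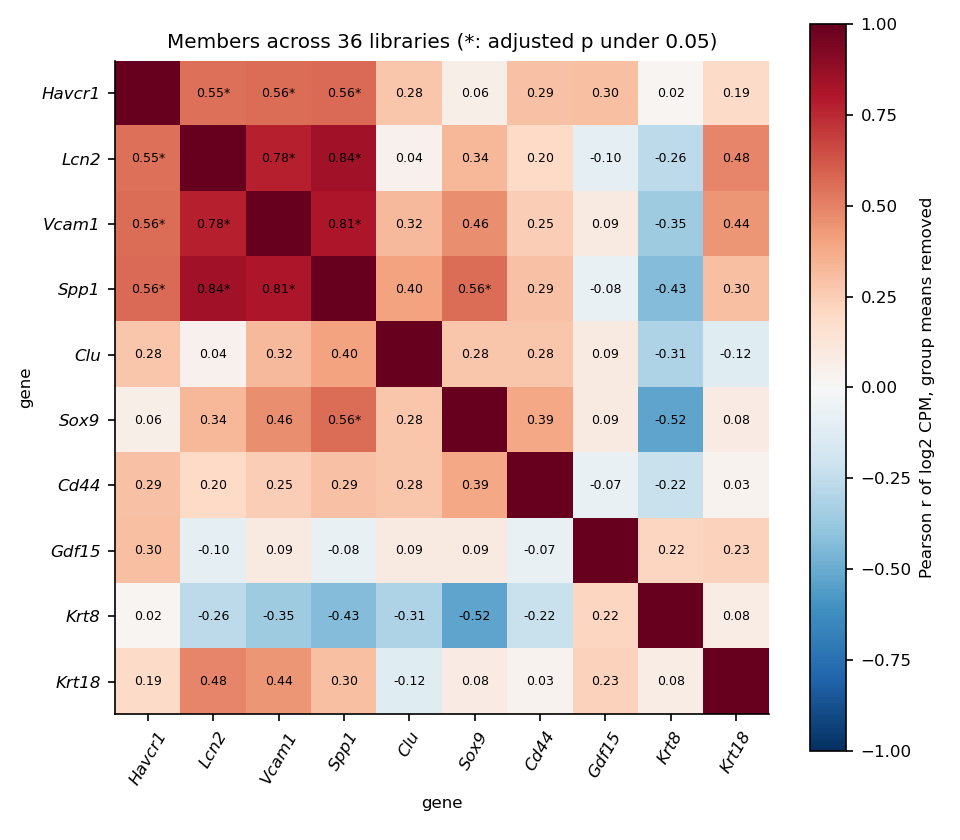
Each cell gives the Pearson r of 2 markers in log2 CPM over 36 libraries after group means were removed, from blue (-1) to red (1), with an asterisk where the adjusted p was under 0.05. The 6 pairs of Havcr1, Lcn2, Vcam1 and Spp1 all carry an asterisk, from 0.55 to 0.843.

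By the rule of the highest Spearman rho over the 36 libraries, the closest profiles of the remaining markers were those of Eepd1 for Lcn2 (rho 0.919, and 0.88 within groups), Antxr1 for Spp1 (0.858 and 0.738), Cygb for Havcr1 (0.821 and 0.698) and S100a6 for Krt18 (0.868 and 0.84). For Sox9, Cd44 and Krt8 the closest were Recql4 (0.758), Gm26561 (0.76) and Efhd2 (0.677). Since all other genes tested were ranked for each marker, the highest rho is a description.

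Other genes of tubular injury and repair, and of 3 stress pathways, were counted in the same fit. Under vehicle 3.44% of all genes tested were higher and 2.16% lower, and 21.1% had an unadjusted p under 0.05. In the mean over treatments 18.8% were higher and 16.6% lower. The counts of each list stand against these shares. Of 38 injury and repair genes measured, 3 were called higher in diabetic than nondiabetic vehicle mice and 0 lower: Cdkn1a (log2 difference 3.22), the chemokine Cxcl10 (1.49) and Lgals3, which encodes galectin-3 (0.61). Their median log2 difference was 0.25, against -0.01 for all genes tested. Averaged over treatments, 11 were higher, among them Anxa3 (0.50) and Lgals3 (0.44), and 1 was lower, Umod, the uromodulin of the thick ascending limb (-0.38). Of 22 p53 target genes, 13 were higher under vehicle and 0 lower, led by Trp53cor1 (3.26), Eda2r (3.78), Cdkn1a and Zmat3 (0.94). Of 16 NF-kB targets, 2 were higher under vehicle (Cxcl10 and Birc3, 0.49) and 0 lower, and in the mean over treatments 11 were higher and 2 lower (Sele, -0.76, and Il1b, -0.64). Of 18 genes of the integrated stress response, 0 were higher under vehicle and 1 lower (Cebpg, -0.24), and 5 had an unadjusted p under 0.05, shares near those of all genes. In the mean over treatments, genes of this list were called in both directions. Ddit4 (1.11) and Trib3 (0.60) were among the higher ones, and Cebpg (-0.20) and Psat1 (-0.59) among the lower ones.

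Of 16 measured receptors and ligands that bind the markers, 1 was called higher under vehicle, where 5.6% of all genes were called: Itgav, the alpha chain of the osteopontin-binding integrins (0.36), and 0 were lower. In the mean over treatments, where 35.4% of all genes were called, 8 were higher and 3 lower: the clusterin receptor Trem2 was higher (1.19), and Lrp2, which encodes the megalin that takes up filtered NGAL, was lower (-0.42). The lower ones also included Vldlr (-0.27) and Itgb1 (-0.15), the beta chain of the main VCAM-1 receptor. Its alpha chain, Itga4, went the other way and was among the higher ones (0.35).

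Proximal tubule markers were lower where they were called. Of 22 measured, 5 were lower under vehicle and 0 higher, led by Miox (-0.83), Slc27a2 (-0.55), Slc13a3 (-0.59) and Slc7a13 (-0.71), with a median of -0.41. In the mean over treatments 16 were lower and 0 higher. Their summed level ran from 19500 to 34800 CPM in diabetic and from 27600 to 44000 CPM in nondiabetic vehicle mice, so the groups overlap. Of 14 macrophage and dendritic cell markers, 0 were called by edgeR under vehicle, with 4 at an unadjusted p under 0.05, beside 21.1% of all genes. In the mean over treatments 7 were higher, beside 18.8% of all genes, among them Mrc1 (0.49) and Cx3cr1 (0.46). Their sum ran from 210 to 276 CPM in diabetic and from 175 to 261 CPM in nondiabetic vehicle mice. Of 9 T and B cell markers, 2 were higher under vehicle, Cd247 (0.85) and Mzb1 (0.89), and their sum ran from 12.7 to 19.9 CPM in diabetic and from 6.91 to 13.4 CPM in nondiabetic vehicle mice. Vcam1 and Spp1 are also expressed by endothelial cells and macrophages, and no fit with the sum of macrophage markers was made.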

How the data were processed

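The deposited table holds the authors' raw counts per gene for 36 libraries; its lowest gene total is 370. Per the submitters' processing notes, bcl2fastq 2.17.1.14, STAR and featureCounts were used with GRCm38. Versions of the aligner and counter, the annotation and the strand setting were not given in the sources used here. Per the labels' protocols, ribosomal RNA was removed from 200 ng of total RNA and the kit was directional.

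The members and gene lists were chosen with earlier results of these data known. All 36 libraries entered 1 edgeR 4.0.16 fit (R 4.3.3) of 6 group means, with TMM factors, the low-count filter of the package and 15,726 genes. Comparisons used its quasi-likelihood test, adjusted by Benjamini-Hochberg over all genes, with a threshold of 0.05. The fit was tested on simulated data. CPM uses the TMM-scaled total, and log2 CPM a prior count of 0.5. Intervals are 95%. Pairs were tested on log2 CPM minus group means, with 100000 permutations within groups (20000 for repeats without 2 libraries), and sums of marker lists likewise over 30 relations.

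Named are all members, at most 4 called genes a list by lowest p, and the gene closest to each member. Trem2, Il1b, Sele, Itgb1, Itga4 and Umod were chosen after their values were seen. Coordinates are from GENCODE M21, which held 15,697 of the 15,730 genes. No libraries held identical counts (highest r 0.9931). Alternatives were other size factors, filters, DESeq2 1.42.0, limma 3.58.1 voom with quality weights, only the groups compared, the replicate block and each library left out. A fit without the 2 libraries rich in structural RNA and one with the urothelial sum were added after seeing the data.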

Additional observations from a re-analysis of the deposited data

Results flagged for a closer look

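Of 60 combinations of marker and group, 8 held a library far from the other 5 of its group, and all 8 lay above them. Chance gives about 1 in 20, or 3, for both ends together, if the values are normally distributed. Havcr1 read 6.18 CPM in nondiabetic vehicle replicate 3 (others 0.581 to 1.98) and 6.61 CPM in nondiabetic benzo-LXA4 replicate 3 (others 0.902 to 1.47). Lcn2 read 0.912 CPM in nondiabetic LXA4 replicate 2 (others 0.295 to 0.517), and Sox9 read 1.14 CPM in nondiabetic LXA4 replicate 3 (others 0.491 to 0.724). In diabetic benzo-LXA4 replicate 5, Spp1 read 618 CPM (others 309 to 418) and Cd44 read 15.0 CPM (others 6.46 to 9.49). Krt8 read 47.9 CPM in nondiabetic vehicle replicate 3 (others 29.4 to 35.1), and Krt18 read 24.1 CPM in diabetic LXA4 replicate 5 (others 6.28 to 11). Nondiabetic vehicle replicate 3 is one of the libraries rich in structural RNA, and diabetic LXA4 replicate 5 held the highest urothelial sum, 66.8 CPM; their part in these values was not tested.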

How the results depend on the processing

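Under LXA4, the number of markers higher in diabetic mice was 3, against 7 by limma voom, 5 without the 2 libraries rich in structural RNA, 1 with the urothelial sum in the fit and 1 to 5 with each library left out. Under benzo-LXA4 it was 2, against 4 by limma voom. The cause was not tested. Over all alternatives it was 2 to 3 under vehicle, 5 to 8 in the mean over treatments, and 0 in every alternative for the compounds and interactions. Of 2560 marker values under alternatives, 89 changed sign, none with a call. Sox9 has no value under the filter at a mean of 1 CPM.

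No pairing of libraries by replicate number was seen. Same-numbered libraries had a median r of -0.0035 (-0.404 to 0.488), and 4 of 36 correlated best with their own number. A small effect shared by same-numbered libraries could be missed by this check. With the replicate block, Krt18 in the mean over treatments was 0.46 (adjusted p = 0.0517), Havcr1 0.75 (0.0205) and Vcam1 under LXA4 0.45 (0.0415), and 28 genes were called for LXA4 in diabetic mice and 9 for its interaction.

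Counts over all genes moved too. Under vehicle, 881 genes were called, against 342 with only the compared groups in the fit, 1329 by DESeq2, 2221 by limma voom, 1399 without the 2 rich libraries and 441 to 1338 with a library left out. Under LXA4, 4353 stood against 2338 with only the compared groups, 6954 by limma voom and 2482 with the urothelial sum. Further counts are given in the order of only the compared groups, DESeq2, limma voom and without the 2 rich libraries. Under benzo-LXA4, 638 stood against 1875, 1066, 2568 and 1906, and 389 to 606 with a library left out. For LXA4 in diabetic mice, 56 stood against 1, 231, 172 and 93, and 0 to 88 with a library left out; for its interaction, 39 stood against 0, 266, 211 and 129, 16 with the urothelial sum, and 0 to 106 with a library left out. For benzo-LXA4 in diabetic mice, 0 stood against 3, 52, 105 and 48. For LXA4 in nondiabetic mice the count was 0, and 3 by DESeq2, limma voom and the urothelial fit. Sox9 had at most 36 counts in a library, and whether depth limits its calls was not tested.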

Other observations

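Markers of other cell types of the cortex were counted in the comparison of diabetic with nondiabetic vehicle mice. There 5.6% of all genes tested were called in either direction by edgeR. Of 6 parietal epithelium markers 2 were higher and 0 lower, Cldn1 (log2 difference 1.12), a tight junction protein, and Aldh1a2 (0.95), which makes retinoic acid. Of 13 fibroblast, pericyte and smooth muscle markers 1 was higher, the pericyte gene Rgs5 (0.61). By edgeR, 0 were called among 9 loop of Henle, 16 distal tubule and collecting duct, 9 urothelium, 10 podocyte, 12 endothelial and 1 neutrophil markers, with 4, 2, 0, 1, 3 and 0 at an unadjusted p under 0.05, beside 21.1% of all genes. In diabetic mice given LXA4, Cldn1 was called lower than in diabetic mice given vehicle, at -0.78.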
